A study of Saccharomyces cerevisiae with 4 samples.

Results

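The genes described here encode the cytosolic translation factors of budding yeast, the proteins that start, extend and end protein synthesis on the ribosome. A fixed list of 37 genes was used, chosen by function but with earlier results of these data known. It held 25 initiation factors, 9 elongation factors and 3 factors of termination and recycling. Of the 37 genes, 34 had 1 probe set each under their own name, out of 5449 genes tested on the array. TIF1, TEF1 and EFT1 had none of their own, and the probe sets named for their partners TIF2, TEF2 and EFT2 carry the mark s, for probe sets that can bind several transcripts. Because the members of each of these pairs encode the same protein, the pair was read through that probe set and its members could not be told apart. The cells were Saccharomyces cerevisiae BY4741, a haploid laboratory strain, grown in YPD, a rich glucose medium, and given either honokiol at 12 µg/mL or an equal volume of ethanol, its solvent, for 2 h. Honokiol is a biphenolic compound from magnolia bark. Each group held 2 Affymetrix arrays, which the titles call biological replicates, and the labels give an age of 8 h for all 4 samples. Values were intensities made with RMA, used here on the log2 scale.

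Translation starts when eIF4E binds the cap of an mRNA and eIF4G, the helicase eIF4A, eIF4B and the poly(A)-binding protein join it. The small ribosomal subunit, loaded with eIF1, eIF1A, eIF3, eIF5 and the eIF2 complex that carries the initiator tRNA, then scans for a start codon, after which eIF5B joins the large subunit. eIF2B recharges eIF2 with GTP and is the step that the kinase Gcn2 restrains in starved yeast. In elongation eEF1A delivers aminoacyl-tRNA, the eEF1B complex recharges it, eEF2 moves the ribosome by a codon, and eEF3 is an additional ATPase that fungi require. The release factors eRF1 and eRF3 end the chain, and Rli1 splits the ribosome for reuse.

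The translation factor genes changed little as a set. Rises and falls of single genes occurred together in 3 of the 7 role groups, the cap complex, eIF3 and the scanning and joining factors. Of the 34 measured genes, 4 rose and 5 fell with honokiol and 25 did not pass the test (limma, Benjamini-Hochberg adjusted p of at most 0.05 over all 5449 genes). That was 26.5% of the members, beside 48.9% of all tested genes. By direction, 23.9% of all tested genes were higher and 25.0% lower. The median log2 fold change of the members was -0.01, beside 0.01 for all tested genes, and the SD of the fold changes over genes was 0.26 for the members and 0.49 for all tested genes. Changes of at least 1.5-fold past the threshold, which 15.9% of all tested genes had, numbered 3 among the members. They were the rise of SUI1 and the falls of TIF4632 and CAM1. These passed under each of the 14 alternative settings run, without each array in turn among them. Several of the settings left the fold changes of these genes as they were and changed only the test. The other calls rested on both honokiol arrays. Without honokiol 1 or without honokiol 2 the members that passed were SUI1 (higher) and TIF4632 and CAM1 (lower), a setting in which the spread came from the ethanol pair alone and 13.0% or 12.9% of all tested genes passed. Without ethanol 2 the calls of TIF35, TIF5 and FUN12 were lost and GCD7 passed as lower. The 2 honokiol arrays did not overlap with the 2 ethanol arrays for 26 members, 14 of them higher and 12 lower, while 80.2% of all tested genes were separated in this way (40.0% higher and 40.2% lower).

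**Figure D1:**
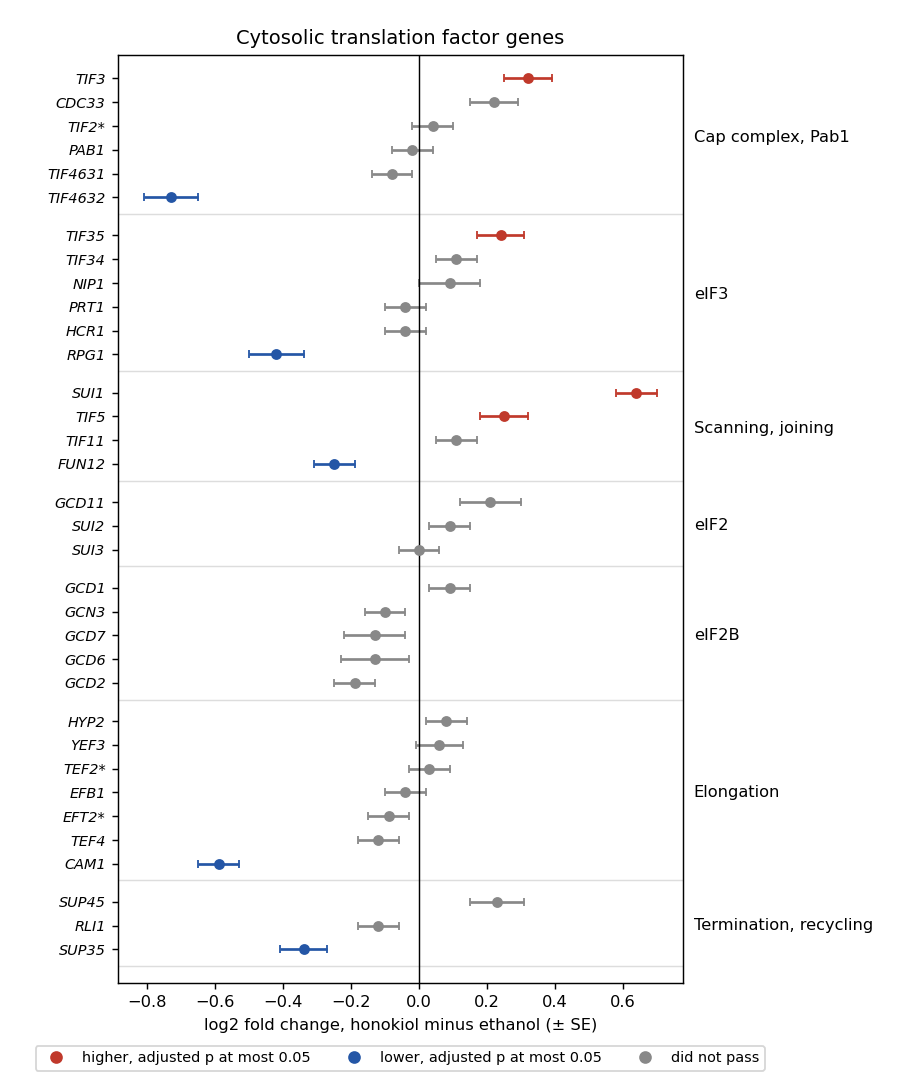
Log2 fold change (honokiol minus ethanol, 2 arrays per group) of the 34 measured translation factor genes, grouped by role, with bars for the standard error. Red points rose and blue points fell in the limma test, grey points did not pass, and an asterisk marks probe sets that can bind several transcripts; SUI1 stands at 0.64, CAM1 at -0.59 and TIF4632 at -0.73, and the grey points lie between -0.19 and 0.23.

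The arrays differed in transcript end balance, with ethanol 2 furthest from the others. Over 7 yeast control transcripts the mean log2 ratio of 5' to 3' probe sets was -1.18 on honokiol 1, -1.22 on honokiol 2, -1.31 on ethanol 1 and -1.67 on ethanol 2. Over all tested genes the median log2 fold change ran from 0.14 in the 1363 shortest genes to -0.17 in the 1362 longest, so gene length is given beside the changes below. The strain markers were mixed. The mating type a genes MFA1, MFA2, STE2 and BAR1 had group means of 10.96 to 13.46 (log2 intensity). Of 3 alpha-cell genes, the pheromone gene MFALPHA1 lay below the background level of 4.39 (3.69 with honokiol and 3.44 with ethanol), while the second pheromone gene MFALPHA2 (6.44 and 5.85) and the receptor gene STE3 (7.92 and 7.32) lay above it. Among genes deleted in BY4741, URA3 read 2.92 and 2.74, LEU2 was near background at 4.38 and 4.41, and MET15 was just above it at 4.52 and 4.49. HIS3, which is only partly deleted in this strain, gave 10.72 and 11.05. The lowest translation factor value on any array was 8.90.

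In the cap-binding complex the eIF4G scaffold genes differed. TIF4632, which encodes the eIF4G2 isoform, had log2 intensities of 8.90 and 8.94 with honokiol and of 9.57 and 9.74 with ethanol. It fell by 0.73 ± 0.08 on the log2 scale (SE, limma adjusted p = 0.00375), which was the largest fall among the measured translation factors. Its paralog TIF4631, which encodes eIF4G1, read 10.00 on both honokiol arrays and 10.06 and 10.11 on the ethanol arrays, a log2 difference of -0.08 ± 0.06 that did not pass (adjusted p = 0.292). The changes of the paralogs differed by 0.65 on the log2 scale. An exact two-sided permutation test of that difference over arrays gave p = 0.333, the smallest that 2 against 2 arrays allow. Both genes are long, at 2745 bases for TIF4632 and 2859 for TIF4631, and 500 tested genes of like length had a median of -0.22.

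Of the other cap complex genes, TIF3 rose. It encodes eIF4B, which stimulates the eIF4A helicase, and read 11.43 and 11.45 with honokiol against 11.19 and 11.04 with ethanol, a rise of 1.25-fold (log2 0.32 ± 0.07, adjusted p = 0.0231). CDC33, the cap-binding protein eIF4E, read 12.33 and 12.27 against 12.14 and 12.03. Its groups did not overlap, but the difference of 0.22 ± 0.07 just missed the threshold (adjusted p = 0.054). The eIF4A probe set shared by TIF1 and TIF2 read 13.46 and 13.44 with honokiol and 13.39 and 13.44 with ethanol, a difference of 0.04 ± 0.06 (adjusted p = 0.622). PAB1, the poly(A)-binding protein, read 13.09 and 13.12 against 13.13 and 13.11, with overlapping groups and a difference of -0.02 ± 0.06 (adjusted p = 0.816). Thus of 6 cap complex probe sets 1 was higher and 1 lower, with a median of 0.01.

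**Figure D2:**
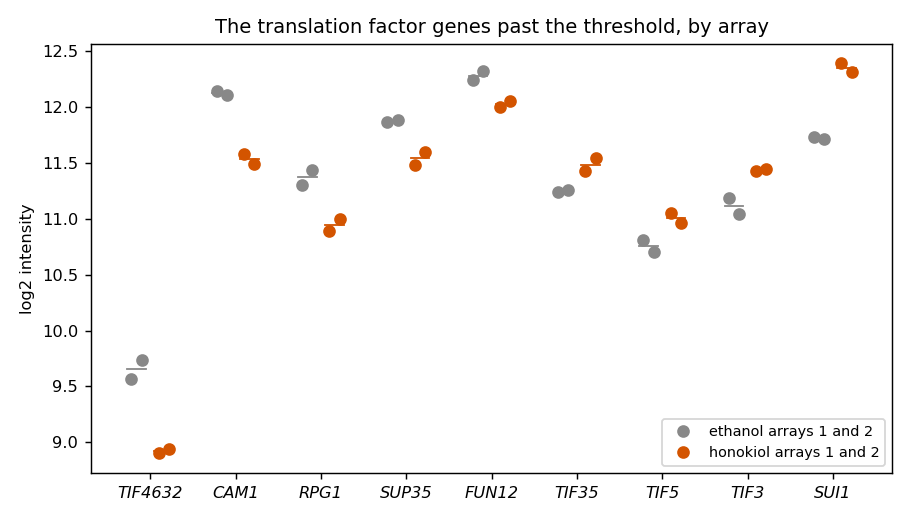
Log2 intensity on each array for the 9 translation factor genes past the threshold, ordered by fold change, with short lines at the group means. In each of the 9 genes both honokiol arrays (orange) lie on the same side of both ethanol arrays (grey), as they do in 80.2% of all tested genes. The 9 genes were picked by the test on these same arrays. SUI1 reads 12.39 and 12.31 against 11.73 and 11.71, and CAM1 11.58 and 11.49 against 12.14 and 12.11.

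The 6 subunit genes of eIF3, the complex that organises the small subunit during initiation, ranged from -0.42 to 0.24 with a median of 0.02. RPG1, the large eIF3a subunit, read 10.89 and 11.00 with honokiol and 11.30 and 11.44 with ethanol, and fell by 0.42 ± 0.08 (adjusted p = 0.0138). TIF35, the RNA-binding eIF3g subunit, read 11.43 and 11.54 against 11.24 and 11.26, a rise of 1.18-fold (log2 0.24 ± 0.07, adjusted p = 0.0398). Neither call held without honokiol 1 or without honokiol 2, and that of TIF35 was also lost without ethanol 1 or ethanol 2. The genes differ in length, at 2895 bases for RPG1 and 825 for TIF35, and genes of like length had medians of -0.22 and 0.09. With gene length adjusted for, RPG1 stood at -0.27 and kept its call, while TIF35 stood at 0.11 and did not pass. TIF34, which encodes eIF3i, was 0.11 higher with groups that did not overlap, but did not pass (adjusted p = 0.167). The core subunit genes PRT1 (eIF3b) and NIP1 (eIF3c) and the loosely bound HCR1 (eIF3j) had overlapping groups and differences of -0.04, 0.09 and -0.04.

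Among the factors that act on scanning, start codon choice and subunit joining, SUI1 had the largest rise of any measured translation factor. SUI1 encodes eIF1, which keeps the scanning ribosome from starting at poor codons. It read 12.39 and 12.31 with honokiol and 11.73 and 11.71 with ethanol, a rise of 1.55-fold (log2 0.64 ± 0.06, adjusted p = 0.00306). At 327 bases it is the shortest gene of the list, and genes of like length had a median of 0.17. With length adjusted for, its change was 0.44 and it kept its call. TIF5, which encodes eIF5, the activator of GTP hydrolysis by eIF2, read 11.05 and 10.96 against 10.81 and 10.70, a rise of 1.19-fold (log2 0.25 ± 0.07, adjusted p = 0.0387). FUN12, the GTPase eIF5B of subunit joining, went the other way, with 12.00 and 12.05 against 12.24 and 12.32, and fell by 0.25 ± 0.06 (adjusted p = 0.0301). At 3009 bases FUN12 is long, genes of like length had a median of -0.21, and with length adjusted for it stood at -0.10 and did not pass. The calls of TIF5 and FUN12 were lost without honokiol 1, honokiol 2 or ethanol 2. TIF11, which encodes eIF1A, the partner of eIF1 on the small subunit, read 11.88 on both honokiol arrays and 11.78 and 11.76 with ethanol, a difference of 0.11 ± 0.06 (adjusted p = 0.172).

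The 3 subunits of eIF2 and the 5 of eIF2B did not pass the limma test in either direction. At an unadjusted p under 0.05 the count was 0 of 3 for eIF2 and 1 of 5 for eIF2B. Of all 5449 tested genes 1534 were higher and 1588 lower at that level. With an intensity trend and robust prior GCD11 and GCD2 passed, as did 54.1% of all tested genes. GCD11 also passed with quantile normalization repeated (0.27), as did 51.2% of all tested genes. Its difference was 0.31 without ethanol 1 and 0.11 without ethanol 2. In eIF2, GCD11, the GTP-binding gamma subunit, read 12.36 and 12.29 with honokiol and 12.22 and 12.01 with ethanol (log2 0.21 ± 0.09, adjusted p = 0.11). SUI2, the alpha subunit that Gcn2 phosphorylates, differed by 0.09 ± 0.06, and the beta subunit gene SUI3 by 0.00 ± 0.06. In eIF2B, the catalytic subunit genes differed by 0.09 ± 0.06 for GCD1 and -0.13 ± 0.10 for GCD6. The regulatory subunit genes differed by -0.10 ± 0.06 for GCN3, -0.13 ± 0.09 for GCD7 and -0.19 ± 0.06 for GCD2, the last with an adjusted p of 0.0634. For GCN3, at 1439 and 1411 against 1521 and 1537 intensity units, the groups did not overlap, and it passed once length was adjusted for (-0.21). In GCD7 the ethanol arrays differed, at 11.07 and 10.84, and without ethanol 2 the gene passed as lower.

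Of the 7 elongation factor probe sets, CAM1 fell and the other 6 did not pass. With an intensity trend and robust prior TEF4 and EFT2 also passed as lower (limma adjusted p = 0.0172 and 0.0447). In that setting 54.1% of all tested genes passed. CAM1 and TEF4 each encode a gamma subunit of eEF1B, the exchange factor complex of eEF1A. CAM1 read 11.58 and 11.49 with honokiol and 12.14 and 12.11 with ethanol, and fell by 0.59 ± 0.06 (adjusted p = 0.00358). In linear terms it fell by 33.7%. TEF4 read 13.21 and 13.18 against 13.30 and 13.33, with a difference of -0.12 ± 0.06 (adjusted p = 0.139). The changes of this pair differed by 0.47 on the log2 scale, with an exact two-sided permutation p = 0.333, again the smallest possible. CAM1 is 1248 bases long and genes of like length had a median of -0.02, so that its length-adjusted change of -0.64 was no smaller.

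The other elongation factors were among the brightest probe sets of the array and moved within a narrow range, from -0.12 to 0.08. The eEF1A probe set shared by TEF1 and TEF2 read 19343 and 19196 intensity units with honokiol and 18541 and 19141 with ethanol (log2 difference 0.03 ± 0.06), where the highest value of any probe set on an array was 22549. Whether such bright probes were saturated in the scanner was not tested. EFB1, the catalytic eEF1B subunit, read 13.76 and 13.78 against 13.81 on both ethanol arrays, a difference of -0.04 ± 0.06. The eEF2 probe set shared by EFT1 and EFT2 read 13.60 on both honokiol arrays and 13.66 and 13.71 with ethanol (-0.09 ± 0.06, adjusted p = 0.262). YEF3, which encodes eEF3, had overlapping groups and a difference of 0.06 ± 0.07. It is the longest gene of the list at 3135 bases, genes of like length had a median of -0.21, and with length adjusted for it stood at 0.22 and passed. HYP2, which encodes eIF5A, the factor that helps ribosomes through difficult stretches and carries the modified residue hypusine, differed by 0.08 ± 0.06 (adjusted p = 0.331).

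The release factor genes differed between groups in opposite directions, 1 of them past the threshold. SUP35, the GTPase eRF3, known also as the protein of a yeast prion, read 11.48 and 11.60 with honokiol and 11.87 and 11.88 with ethanol, and fell by 0.34 ± 0.07 (adjusted p = 0.016). The call was lost without honokiol 1 or honokiol 2. SUP45, its partner eRF1, which reads the stop codon, was at 11.97 and 11.90 against 11.77 and 11.63, a difference of 0.23 ± 0.08 that did not pass (adjusted p = 0.0597). The changes of SUP45 and SUP35 differed by 0.57 on the log2 scale, with an exact two-sided permutation p = 0.333. RLI1, the iron-sulfur ATPase that recycles ribosomes, read 11.04 and 11.09 against 11.22 and 11.15, with a difference of -0.12 ± 0.06 (adjusted p = 0.182).

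Set side by side, the stages of translation had medians close to 0. The median log2 fold change was 0.02 for the 24 initiation probe sets, -0.04 for the 7 of elongation and -0.12 for the 3 of termination and recycling. Changes past the threshold numbered 7 of 24 for initiation, 1 of 7 for elongation and 1 of 3 for termination and recycling, beside 48.9% of all tested genes. Averaged over the initiation genes, the deviation from each gene's mean was -0.01 and 0.02 with honokiol and 0.00 and -0.01 with ethanol. For the elongation genes it was -0.04 and -0.06 against 0.03 and 0.06. That mean leans on CAM1, which differed by -0.59, while the others lay between -0.12 and 0.08. No test of stages was made.

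Among the translation factors the direction of change went with gene length. The 4 genes that rose had a median length of 1021.5 bases, the 5 that fell 2745 and the other 25 a median of 1377. Across the 34 genes the Pearson correlation of log2 fold change with log2 length was -0.55 (Spearman -0.52), beside -0.23 (Spearman -0.29) over all 5449 tested genes. These are descriptions across genes, which share the same 4 arrays. Of the 1362 longest tested genes 39.5% were lower, and so were 4 of the 11 translation factors among them. With length adjusted for, 7 of the 9 calls remained (SUI1, TIF3, TIF5, TIF4632, CAM1, RPG1 and SUP35), those of TIF35 and FUN12 were lost, and those of YEF3 (higher) and GCN3 (lower) were added. In that setting 50.9% of all tested genes passed, 21.8% as higher and 29.1% as lower. With the 5' to 3' ratio as a covariate SUI1, TIF4632 and CAM1 passed, as did 34.3% of all tested genes.

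**Figure D3:**
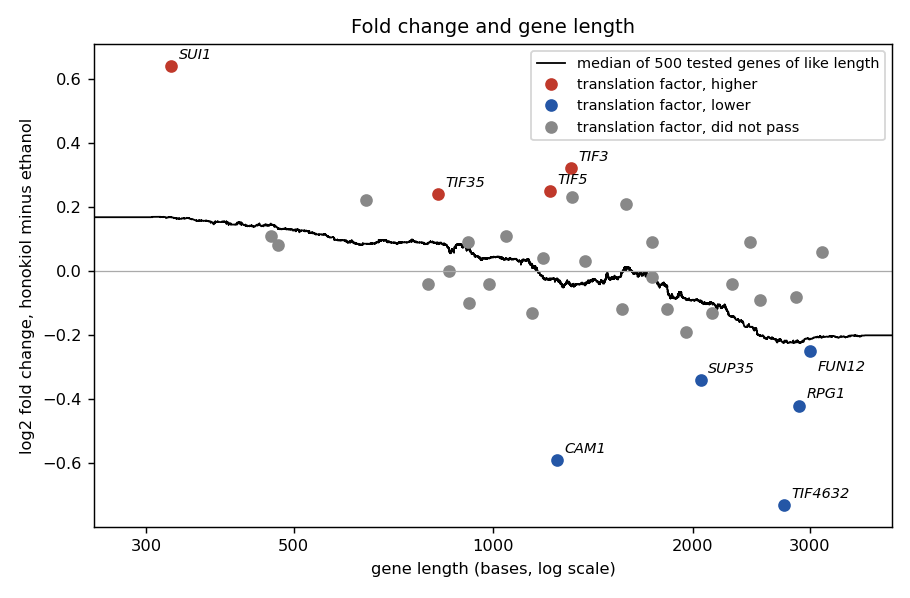
Log2 fold change (honokiol minus ethanol) of the 34 measured translation factor genes against gene length on a log axis, with the running median of 500 tested genes of like length as a black line. The line falls from 0.17 at the length of SUI1 to -0.22 at that of TIF4632; SUI1, CAM1 and TIF4632 lie 0.47, -0.57 and -0.51 from it, and FUN12 -0.04.

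Genes around the 37 were read as 5 further lists, also chosen with earlier results of these data known. Their shares were not tested against that of the factors. Of 21 genes linked to the modification of elongation factors, release factors or ribosomal proteins, 15 rose and 1 fell. Beside them, 23.9% of all genes were higher and 25.0% lower. The median log2 fold change of the 21 was 0.35, and 0.30 with length adjusted for. Among the genes for diphthamide, the modified histidine of eEF2, JJJ3 had the largest rise. It read 7.34 and 7.26 with honokiol and 5.57 and 4.73 with ethanol, a rise of 4.44-fold (log2 2.15 ± 0.28, adjusted p = 0.0053). The ethanol 2 value lay near the background level of 4.39 and the ethanol arrays differed, so the size of this rise is uncertain. KTI11, which also serves the Elongator tRNA modification pathway, rose 1.89-fold (9.55 and 9.60 against 8.70 and 8.60, adjusted p = 0.00165). DPH2 rose 1.74-fold, and EFM4, a lysine methyltransferase of eEF1A, rose 1.88-fold (adjusted p = 0.00377 and 0.00528). Chosen after their values were seen, DPH1 rose 1.26-fold, DPH6 fell by 0.45 on the log2 scale, and DPH5 and RRT2 differed by -0.06 and 0.14 and did not pass. Also named after their values were seen were the modifying enzymes of eIF5A. LIA1, the second enzyme of hypusine formation, rose 1.71-fold (adjusted p = 0.00225), while DYS1, the first, differed by -0.12 (adjusted p = 0.171). Without honokiol 1 or honokiol 2 the median of the 21 genes was 0.35 or 0.34, and fewer passed as higher, as among all tested genes.

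Of 3 paralogs of elongation factors outside the list, 2 rose, beside 23.9% of all genes, while the main copies did not pass. ANB1, the eIF5A gene that yeast uses without oxygen, read 10.71 and 10.54 with honokiol and 9.69 and 9.67 with ethanol, a rise of 1.92-fold (log2 0.94 ± 0.08, adjusted p = 0.00213), beside the difference of 0.08 for its near-identical paralog HYP2. HEF3, a weakly expressed eEF3 paralog, read 7.89 on both honokiol arrays and 7.53 and 7.50 with ethanol, a rise of 1.30-fold (adjusted p = 0.00745), beside 0.06 for YEF3. NEW1, also named after its value was seen, is an ABC protein related to eEF3 and differed by 0.01 (adjusted p = 0.947). Signal from one paralog in the probe set of the other was not tested, and these probe sets carry no mark.

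In translation control 7 of 17 genes fell (median -0.18, and -0.19 with length adjusted for), beside 25.0% of all genes. None passed as higher, though 7 of the 17 had differences above 0, as had 2759 of all 5449 genes. The largest difference was that of DED1, named after its value was seen. It was 0.63 ± 0.26 higher but did not pass (adjusted p = 0.108), with ethanol arrays at 10.74 and 9.99. With an intensity trend and robust prior 4 passed as higher and 8 as lower, beside 54.1% of all tested genes in either direction. GCN20 and GCN1, which together activate the kinase Gcn2, fell by 0.58 ± 0.07 and 0.45 ± 0.10 on the log2 scale (adjusted p = 0.00437 and 0.0229). TMA64, a ribosome-associated protein, fell by 0.56, and EAP1, which binds eIF4E, fell by 0.45 (adjusted p = 0.0101 and 0.0075). Chosen after their values were seen, the kinase gene GCN2 fell by 0.43 ± 0.11 (adjusted p = 0.0336), and GCN4, the transcription factor under its translational control, differed by 0.17 ± 0.06 (adjusted p = 0.0668). Without honokiol 1 or honokiol 2 the median of the 17 genes was -0.17 or -0.18, and fewer passed as lower, as among all tested genes. In the main setting 9 were lower at an unadjusted p under 0.05, as were 1588 of all 5449 genes.

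Of 7 genes for ribosome rescue and nascent chain quality control 4 fell (median -0.38, and -0.28 with length adjusted for), beside 25.0% of all genes. HBS1, the GTPase partner of the rescue factor Dom34, fell by 0.54 and ITT1, linked to the release factors, fell by 0.54 (adjusted p = 0.00763 and 0.005). RKR1, a ubiquitin ligase for stalled chains, fell by 0.45, and SKI7, an exosome adaptor, fell by 0.38 (adjusted p = 0.0116 and 0.0459). These genes are long, with a median of 2172 bases. Without honokiol 1 or honokiol 2 the median of the 7 was -0.35 or -0.4, and fewer passed as lower, as among all tested genes. The ethanol arrays moved this median more, to -0.53 without ethanol 1 and -0.23 without ethanol 2. With the 5' to 3' ratio as a covariate it was -0.18. In the main setting 5 were lower at an unadjusted p under 0.05, as were 1588 of all 5449 genes.

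Of 9 mitochondrial translation factors 4 fell, with a median of -0.09, beside 25.0% of all genes. The organelle elongation factors MEF2, MEF1 and TUF1 fell by 0.75, 0.42 and 0.28 (adjusted p = 0.00316, 0.0117 and 0.0162), and AIM23, the mitochondrial initiation factor 3, fell by 0.37 (adjusted p = 0.00927). Without honokiol 1 or honokiol 2 the median of the 9 was -0.24 or -0.13, and fewer passed as lower, as among all tested genes. Of 128 cytosolic ribosomal protein genes 46 were higher, beside 23.9% of all genes, with a median of 0.15, and of 0.01 with length adjusted for. These genes are short, with a median of 771 bases.

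**Figure D4:**
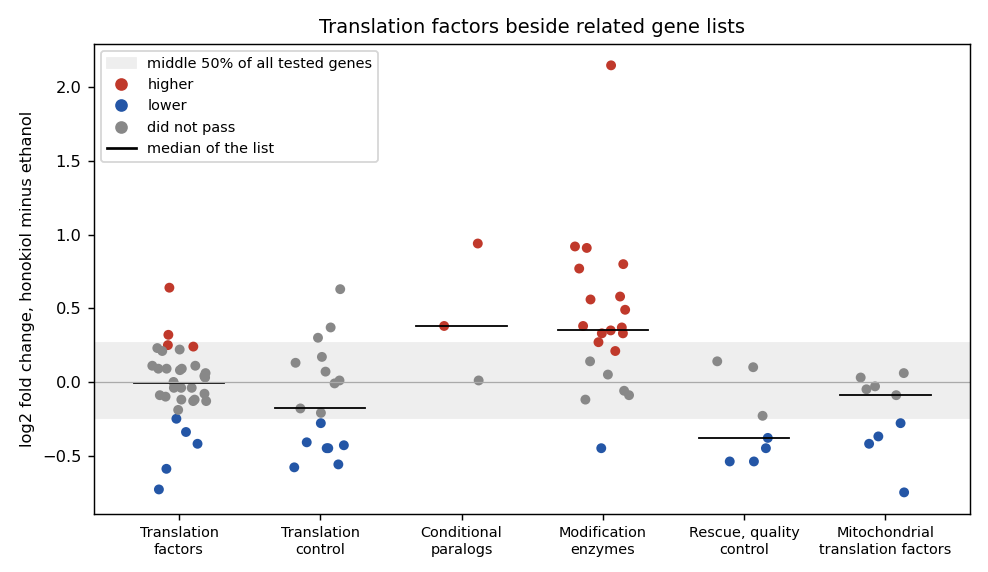
Log2 fold changes (honokiol minus ethanol) of the 34 measured translation factors and of 5 related gene lists, 1 point per gene, with the median of each list as a line and the middle 50% of all tested genes as a grey band. Red points rose, blue points fell and grey points did not pass. The medians are -0.01 for the translation factors and -0.38 for rescue and quality control. The genes linked to modification, labelled modification enzymes, have a median of 0.35.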

How the data were processed

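Transcripts of 4 samples were measured on Affymetrix arrays. The deposited values are linear intensities for each array's probe sets, which the authors made with RMA (background correction, quantile normalization, probe summary), per the submitters' processing notes. The RMA version and the genome build are not given in the sources used here, so no coordinates are given. Log2 was taken with no pseudocount.

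Gene names came from the platform annotation, matched by gene ID to assembly R64, whose table also gave gene lengths. Of 10928 probe sets, 5498 named an S. cerevisiae gene, giving 5449 genes through the brightest probe set each. Background was the 95th percentile (quantile 0.95) of the means of 1747 probe sets of another species. Groups came from the titles. The test was limma 3.58.1 in R 4.3.3, two-sided, Benjamini-Hochberg adjusted, with 2 residual and 2.76 prior degrees of freedom. It was also run on simulated data with few changed genes and independent noise. The real data differ in both respects, so that run cannot vouch for the calls. The number of arrays limits the precision. Length adjustment removed a loess curve (span 0.3) of each array's deviations on log2 gene length. This setting was chosen after seeing the data.

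The members and lists were chosen with earlier results of these data known. All members are named, and of each other list up to 4 genes with the largest changes past the threshold, with others marked in the text as named after their values were seen.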

Additional observations from a re-analysis of the deposited data

How the results depend on the processing

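The counts of 4 higher and 5 lower translation factors moved with several settings. The share of all tested genes that passed, 48.9% in the main setting, moved as well and is given in brackets. With an intensity trend and a robust prior the counts were 7 and 8 (54.1%), and with quantile normalization repeated 7 and 4 (51.2%). With all probe sets but controls as features they were 1 and 3 (16.4% of 10715 probe sets). With the 5' to 3' ratio as a covariate they were 1 and 2 (34.3%). Leaving out 1 array at a time also moved the counts of members and of all tested genes, with member medians between -0.03 and 0.01. The counts were also 4 and 5 with median centring (48.8%), and with length-adjusted values (50.9%), though not with the same genes in the latter. A filter on dim probe sets, the dimmest probe set per gene and leaving out probe sets marked s or x also gave 4 and 5. For the called members these 3 could alter only the variance prior of limma and the adjustment of p-values. Each measured member has 1 probe set, well above background, and no called member carries a mark. With the replicate number as a block the counts were 6 and 5 (51.6%). The differences between same-numbered arrays correlated at 0.325 over genes, which is a hint from the data only, with 2 pairs.

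SUI1, TIF4632 and CAM1 passed under all 14 settings, with log2 ranges of 0.44 to 0.69, -0.82 to -0.58 and -0.64 to -0.53. TIF3 passed under 10, RPG1 under 11, SUP35 under 10, TIF5 under 9, TIF35 under 7 and FUN12 under 7. CDC33 and SUP45, not called in the main setting, passed under 4 each, and GCD11, also not called there, under 3.

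No called gene changed sign. Some small uncalled differences did. With quantile normalization repeated PRT1 stood at 0.00, HCR1 at 0.04 and TEF2 at -0.02. With the 5' to 3' ratio as a covariate SUI3 stood at 0.00 and GCD6 at 0.03. Leaving out 1 array at a time gave ranges of -0.03 to 0.20 for NIP1, -0.01 to 0.02 for SUI3, -0.09 to 0.01 for PRT1 and 0.00 to 0.12 for YEF3. With length adjusted for, TIF4631 stood at 0.07, TIF2 at -0.02, PRT1 at 0.07, TIF11 at -0.08, SUI2 at -0.02, SUI3 at -0.12, EFT2 at 0.05 and HYP2 at -0.11. The cause was not tested beyond what each setting changes. With 2 arrays per group, small changes cannot be told from the spread.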

Other observations

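Probe sets for 3 bacterial control transcripts (dap, lys and phe) had a mean log2 intensity of 6.64 and 6.0 with honokiol and 7.20 and 6.98 with ethanol. Their mean log2 ratio of 5' to 3' probe sets was -0.63 and -0.77 with honokiol and -0.84 and -1.32 with ethanol, again lowest on ethanol 2. The labels do not say at which step these controls were added.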
